A study of Mus musculus with 100 samples.

Results

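The keratins are the epithelial intermediate filament genes of the mouse, and they were taken from the table of gene values by name, as every row called Krt followed by a number and at most 1 letter. The rule found 50 genes of the 25965 listed, and no measured value entered it. The study compared mouse embryonic fibroblasts (MEFs) with induced pluripotent stem cells (iPSCs) made from them and with an embryonic stem cell (ESC) line, and 18 RNA-seq libraries, 3 from each of 6 groups, are used here. The 82 methylation samples among the 100 of the series were not analysed here.

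All cells were F1 hybrids of a C57BL/6J (BL6) and a Mus musculus castaneus (CAST) genome. The MEFs came from embryos of a BL6 mother with the i4F transgene, a doxycycline-inducible cassette of the 4 reprogramming factors Oct4, Sox2, Klf4 and c-Myc, and of a CAST father. The female MEFs, labelled parental, came from 1 female embryo; no male MEFs were sequenced. F KSR2 and F KSR4 are female iPSC lines and M KSR3 and M KSR5 are male ones; by the study's methods, the MEFs behind each sex of these lines came from 1 embryo, so the lines of a sex share their embryo. Each line was grown from a colony picked after 12 days of doxycycline, so each is 1 clone, and all 4 were reprogrammed and kept in medium with knockout serum replacement (KSR) and LIF, on feeder cells at first. TX 2i ESCs are the female TX1072 line, also a BL6 and CAST hybrid. By the study's methods they were kept in medium with foetal bovine serum, LIF and the inhibitors CHIR99021 and PD0325901. The MEFs were also grown with foetal bovine serum, of another product, and neither LIF nor the inhibitors are listed for their medium. TX 2i ESCs are 1 line, so culture condition, cell type and line cannot be told apart. Sex, embryo and line cannot be told apart among the KSR-iPSCs either, with 2 lines of each sex.

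Keratins form filaments from obligate pairs of 1 acidic type I chain and 1 basic or neutral type II chain, and each kind of epithelium is marked by its own pairs. KRT8 and KRT18 are the first pair of the embryo and the pair of simple epithelia, KRT5 and KRT14 fill the basal layer of stratified epithelia, KRT1 and KRT10 the layers above it, and a large set of hair keratins builds the hair shaft and its inner root sheath. Fibroblasts use vimentin as their main cytoplasmic intermediate filament. The genes lie in 2 clusters. In the files' build, GRCm38, the rule's 27 genes on chromosome 11 lay within chr11:99232761-100269871 and were all type I, and its 23 on chromosome 15 lay within chr15:101349571-102032026 and were the 22 type II genes and Krt18. Krt8 and Krt18 lie next to each other at the end of that cluster, with their starts 23873 bases apart and transcribed away from each other.

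The 250 bases before the transcription start of 5 keratins are printed 5′ to 3′ on the gene's strand, from RefSeq (GRCm38.p6), because the results turn on these genes. Krt42 had no reads in MEFs and reads in every pluripotent library, Krt8 and Krt18 are the partner genes with the highest mean levels in the iPSCs, and Krt12 and Krt28 were low genes that were called in both main comparisons. Capitals mark TATAAA or CCAAT, or the same letters on the other strand. The windows are chr11:100269952-100270201 (minus strand) for Krt42, chr15:102004343-102004592 (minus strand) for Krt8, chr15:102027966-102028215 (plus strand) for Krt18, chr11:99422260-99422509 (minus strand) for Krt12 and chr11:99374904-99375153 (minus strand) for Krt28. The RefSeq start of Krt42 is 80 bases upstream of the gene's start in the files, and the other 4 starts are at the same base.
Krt42: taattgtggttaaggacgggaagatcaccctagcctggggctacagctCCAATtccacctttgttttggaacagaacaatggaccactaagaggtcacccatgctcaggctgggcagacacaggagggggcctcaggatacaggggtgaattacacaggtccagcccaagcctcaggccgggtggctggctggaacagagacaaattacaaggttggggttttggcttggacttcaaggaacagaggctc
Krt8: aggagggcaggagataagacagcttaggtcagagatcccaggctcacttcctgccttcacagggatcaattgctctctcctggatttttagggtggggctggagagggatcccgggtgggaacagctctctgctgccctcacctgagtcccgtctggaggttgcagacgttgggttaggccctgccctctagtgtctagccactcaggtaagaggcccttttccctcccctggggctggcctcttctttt
Krt18: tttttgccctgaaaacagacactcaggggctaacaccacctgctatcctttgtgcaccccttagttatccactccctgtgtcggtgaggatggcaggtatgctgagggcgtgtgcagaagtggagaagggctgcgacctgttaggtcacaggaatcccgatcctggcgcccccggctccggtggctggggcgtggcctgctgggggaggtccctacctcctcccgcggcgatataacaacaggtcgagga
Krt12: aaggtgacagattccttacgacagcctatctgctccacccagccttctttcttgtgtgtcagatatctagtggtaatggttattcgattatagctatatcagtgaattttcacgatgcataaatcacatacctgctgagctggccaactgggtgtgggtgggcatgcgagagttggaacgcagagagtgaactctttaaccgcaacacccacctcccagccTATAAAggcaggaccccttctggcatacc
Krt28: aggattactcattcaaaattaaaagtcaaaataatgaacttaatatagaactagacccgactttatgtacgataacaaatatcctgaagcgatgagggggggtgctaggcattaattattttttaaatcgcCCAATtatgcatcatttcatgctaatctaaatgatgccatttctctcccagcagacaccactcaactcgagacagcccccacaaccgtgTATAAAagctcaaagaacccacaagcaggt

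Krt12 and Krt28 hold TATAAA in these windows, 29 and 30 bases before the start, Krt28 and Krt42 hold CCAAT, and the windows of Krt8 and Krt18 hold neither. Of the 50 keratins, 34 had an entry in the RefSeq promoter table, with 35 entries in all. TATAAA, searched on both strands, stood in 16 of the 35 keratin entries (45.7%), and in 12.4% of the 32851 promoters of the same length in the table. CCAAT stood in 13 of 35 (37.1%, against 33.8%), TGANTCA in 2 (5.71%, against 6.75%) and GGGCGG in 2 (5.71%, against 32.7%). No motif overlaps another in its letters as searched. Of the 10 keratins that had an entry and entered the tests, 4 held TATAAA, and of the 24 others with an entry 12 did.

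Reads on genes numbered 13183036 to 17921280 per library, with a median of 15722711, and keratins took 422 to 3549 of them, or 0.0028 to 0.0239%. All results rest on this small number of reads. Reads were recovered from the deposited log2 values (RPM is the number of reads scaled by the authors to a fixed total per library, which is larger than the reads on genes), and low numbers are uncertain by 1 or 2 reads, because the column of all reads is up to 2 reads above the sum of its allelic classes in 86.9 to 98.7% of genes of a library and odd numbers are 79.7 to 85.6% of its values from 1 to 8. A count of 0 allows up to 3 reads, which is 0.153 to 0.203 RPM, and this limit covers counting error only. The labels fitted their markers: 15 fibroblast genes summed to 32143 to 43988 RPM in MEFs and to 22.5 to 252.7 RPM in the 15 pluripotent libraries, and 10 genes of pluripotent cells summed to 3761 to 8554 RPM in those and to 50.1 to 55.9 RPM in MEFs. In such bulk samples, fewer cells of a type and less RNA per cell cannot be told apart.

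Most keratins had few reads or none at this depth. Of the 50 genes, 10 had no read in any library, 20 stayed below 10 reads in each, 7 reached 10 reads in at least 1 library, and 13 entered the tests by a log2 RPM above 0, which is 1 RPM, in at least 3 libraries. The 10 without reads were Krt31, Krt32, Krt34, Krt35, Krt39, Krt40 and Krt82, which belong to the hair shaft, Krt73 and Krt74 of the inner root sheath, and Krt6b. All 14 hair shaft keratins stayed below the tests, with 7 at no reads and 7 with 3 or fewer reads in every library, and 43 of the 50 keratin-associated protein genes (Krtap), which fill the hair shaft's matrix, had no reads either. Of those 50, Krtap1-5 reached 57 reads in 1 library and no other exceeded 4. Of the simple epithelial keratins 5 of 6 were tested, of the epidermal and basal ones 3 of 11, of the mucosal, corneal and stress keratins 3 of 10, and of the inner root sheath keratins 1 of 7. A library held reads of 12 to 17 keratins in MEFs, 16 to 21 in the female KSR-iPSCs, 21 to 29 in the male ones and 12 to 16 in TX 2i ESCs.

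**Figure D1:**
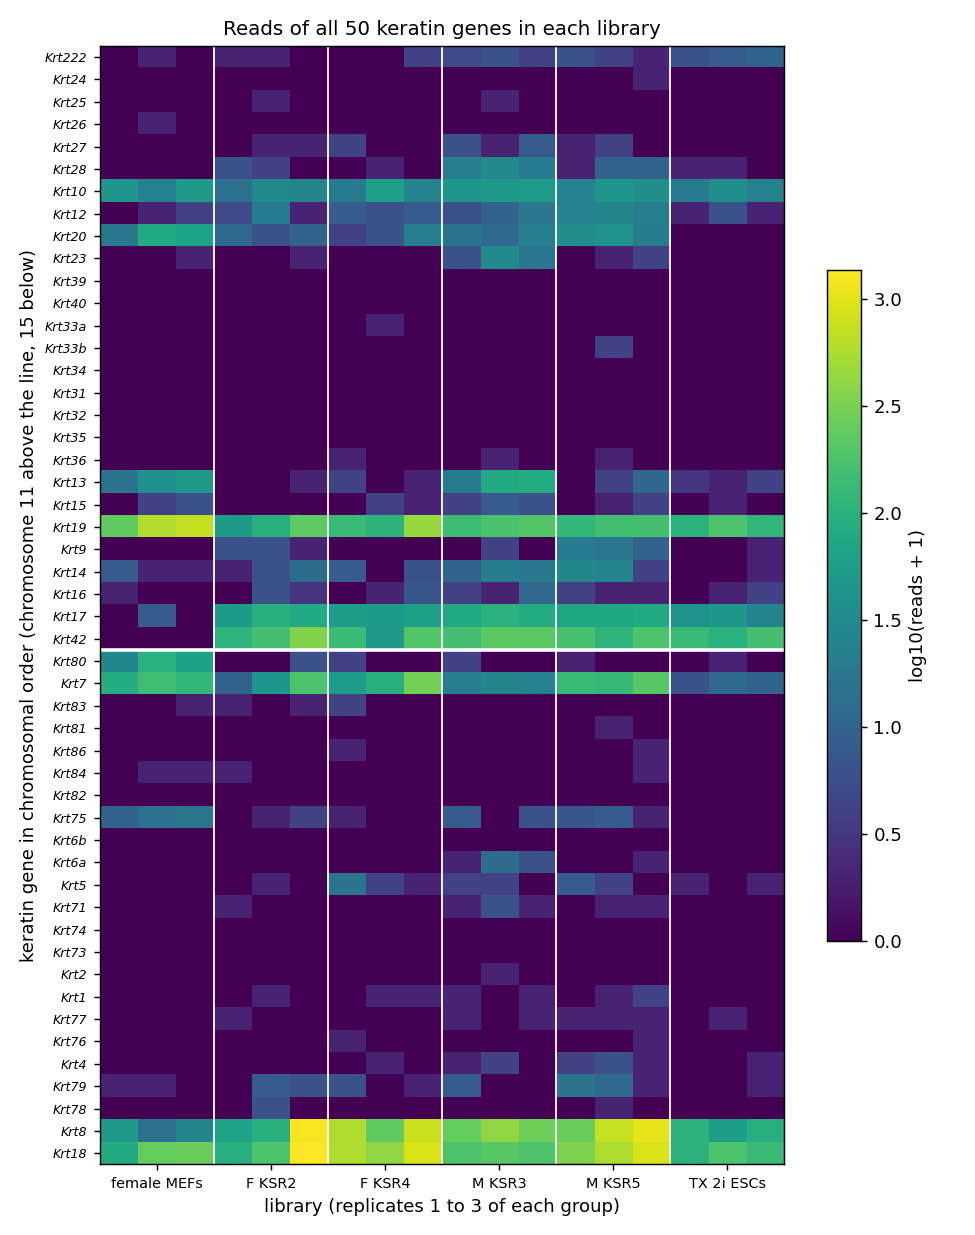
Reads of all 50 keratins (rows, in chromosomal order, chromosome 11 above the white line and chromosome 15 below it) in each of the 18 libraries (columns, by group), with log10 of the reads plus 1 as colour. The brighter rows are Krt8, Krt18, Krt19 and Krt10 in all groups, Krt7 outside TX 2i ESCs, and Krt17 and Krt42 outside MEFs, while most other rows stay dark, and the hair shaft keratins hold at most 3 reads in a library.

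Per kilobase of coding length, the scale on which genes can be compared, the leading keratin differed between the groups. In MEFs it was Krt19 (22.6 ± 9.57 RPM per kb, SD, n = 3), ahead of Krt18 (8.34 ± 3.80) and Krt7 (4.63 ± 0.78). In TX 2i ESCs Krt19 (6.24 ± 1.62), Krt18 (6.19 ± 1.47) and Krt42 (5.57 ± 1.69) lay within each other's spread. In M KSR3 Krt8 led (11.5 ± 2.43), with Krt18 (8.30 ± 0.25) and Krt42 (8.00 ± 1.02) behind it. In the other 3 iPSC lines Krt18 and Krt8 were the first and second by mean, and did not differ beyond their spread. In F KSR2 this order rested on replicate 3 (Krt18 at 66.1, Krt8 at 52.3). There Krt42 was above Krt8 in replicate 1 (4.46 against 2.44) and in replicate 2 (6.28 against 3.39). Krt18 was at 30.7 ± 16.1 in F KSR4, 26.8 ± 13.6 in M KSR5 and 25.9 ± 34.8 in F KSR2, and Krt8 was at 22.1 ± 13.4, 26.6 ± 15.9 and 19.4 ± 28.5 in the same lines.

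Summed over all members, type I keratins exceeded type II keratins in each of the 18 libraries. All keratins together reached 35.2 to 72.0 RPM in MEFs, 29.1 to 36.5 in TX 2i ESCs, 57.5 to 72.2 in M KSR3, 69.4 to 158 in M KSR5, 56.8 to 187 in F KSR4 and 23.6 to 216 in F KSR2. Type II genes made up 17.2 ± 5.45% of the sum in TX 2i ESCs (SD, n = 3), 22.6 ± 6.78% in MEFs, 26.5 ± 12.6% in F KSR2, 29.2 ± 3.80% in M KSR3, 37.6 ± 4.64% in F KSR4 and 42.3 ± 6.64% in M KSR5. Per kilobase of coding length these shares were 15.5, 20.8, 24.3, 26.8, 34.7 and 39.6%, in the same order of groups. They are a description, with no test over the members, and messenger levels of the partners say nothing of their proteins.

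**Figure D2:**
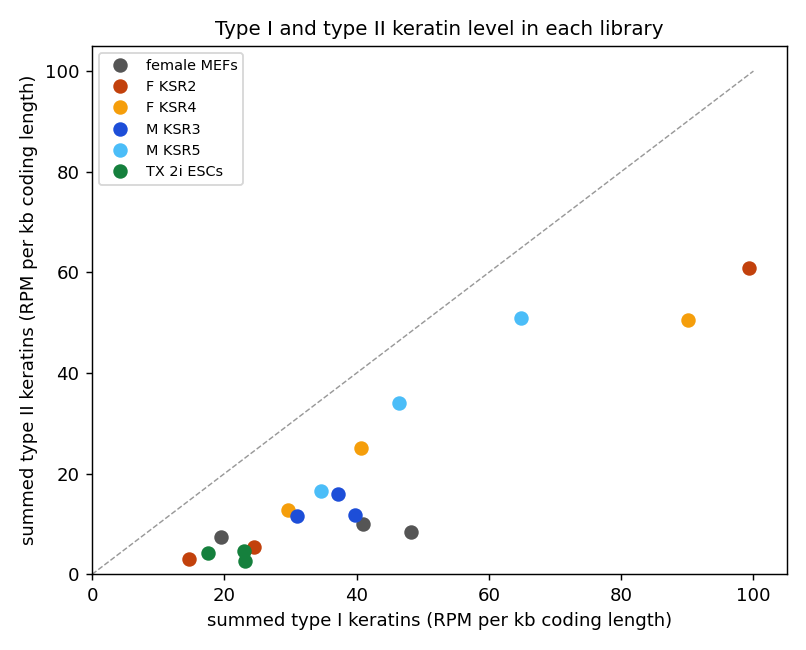
Summed level of the type II keratins (vertical axis, RPM per kb of coding length) against that of the type I keratins (horizontal axis, same unit), 1 point per library, coloured by group, with a dashed line of equal sums. All 18 libraries lie below the line, and the highest point is F KSR2 replicate 3.

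Pluripotent cells and MEFs shared several keratins and differed in the level of others. Against MEFs, the mean of the 5 pluripotent groups was higher for Krt42, Krt17, Krt8, Krt12 and Krt28 and lower for Krt80, Krt13, Krt20 and Krt19, and 4 of the 13 tested keratins (Krt7, Krt18, Krt14 and Krt10) were not called at a limma adjusted p of 0.05. The 5 higher calls stand against 42.1% of all 14632 tested genes called higher, and the 4 lower calls against 32.5% called lower, so the 2 counts are near what the background gives for 13 genes. The median log2 difference of the 13 was 0.82, and that of all tested genes 0.21. Several of the 13 passed the filter only through the groups where they are high. These were Krt80 through MEFs, Krt42 and Krt17 through pluripotent libraries, Krt28 through M KSR3, and Krt12 and Krt14 through KSR-iPSC libraries. A difference in that direction was thus built in for them, and the counts are a description. Krt28 lost its call without any 1 of the 3 MEF libraries (adjusted p of 0.0786, 0.104 and 0.099), and Krt12 without MEF replicate 1 (2.00, adjusted p = 0.0527 by limma) or 2 (1.94, adjusted p = 0.0597).

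Krt42, a type I keratin whose human counterpart is a pseudogene, was the clearest gain. It had 0 reads in the 3 MEF libraries and 108, 159 and 350 reads in F KSR2, 138, 47 and 192 in F KSR4, 160, 219 and 216 in M KSR3, 167, 110 and 178 in M KSR5, and 132, 100 and 156 in TX 2i ESCs. All 15 pluripotent libraries were above all 3 MEF libraries, and the 5 pluripotent groups overlapped. Taking 3 reads as the floor of each MEF library, mean Krt42 was at least 72.6-fold higher in F KSR2, 46.9-fold in F KSR4, 65.9-fold in M KSR3, 52.0-fold in M KSR5 and 45.9-fold in TX 2i ESCs. Without replicate 3 these bounds were 44.3-fold in F KSR2 and 31.0-fold in F KSR4. The adjusted p of the 5 groups against MEFs was 2.98e-11 by limma. Krt42 passed the filter only through pluripotent libraries, so a higher level there was built in and this value is a description. The KSR-iPSC lines were 0.26 ± 0.42 (log2, SE) above TX 2i ESCs, which was not called (adjusted p = 0.718).

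Krt17, a type I keratin induced by stress in epidermis and present in skin appendages, had a similar pattern at a lower level. MEFs held 0, 7 and 0 reads, F KSR2 51, 94 and 83, F KSR4 57, 51 and 61, M KSR3 79, 103 and 84, M KSR5 71, 72 and 82, and TX 2i ESCs 40, 46 and 25. All pluripotent libraries were above all MEF libraries. The difference was 5.20 ± 0.44 (log2, SE; adjusted p = 1.03e-08 by limma), and 6.13 without MEF replicate 2, the only MEF library with reads. Krt17 also passed the filter only through pluripotent libraries, so these values are a description too. On the RPM scale every KSR-iPSC library was also above every TX 2i library, but this difference, 0.99 ± 0.45, was not called (adjusted p = 0.129).

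Krt8, the type II chain of the simple epithelial pair, was higher in the 4 iPSC lines, while its partner Krt18 was already present in MEFs. Krt8 took 47, 13 and 26 reads in MEFs, 64, 93 and 1263 in F KSR2, 587, 233 and 773 in F KSR4, 247, 410 and 278 in M KSR3, 268, 733 and 1060 in M KSR5, and 107, 57 and 95 in TX 2i ESCs. All 15 pluripotent libraries were above the 3 MEF libraries, by little in TX 2i ESCs and in 2 libraries of F KSR2. The difference was 3.47 ± 0.68 (log2, SE; adjusted p = 0.0002). By line, Krt8 was 8.08-fold higher in F KSR2, 20.3-fold in F KSR4, 12.2-fold in M KSR3 and 24.3-fold in M KSR5, all called, and 3.49-fold higher in TX 2i ESCs, not called (adjusted p = 0.081). Without F KSR2 replicate 3 the value of F KSR2 was 3.07-fold (adjusted p = 0.0426), and without its replicate 1 it was 14.2-fold. Without M KSR5 replicate 1 the value of M KSR5 was 36.5-fold. Of its windows of 50 bases, 26.9% also occur in transcripts of another gene, Krt8-ps, so part of its reads may have been assigned elsewhere or to it from there.

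Krt18 took 83, 249 and 266 reads in MEFs, 95, 177 and 1378 in F KSR2, 578, 416 and 916 in F KSR4, 184, 209 and 183 in M KSR3, 327, 566 and 905 in M KSR5, and 104, 178 and 129 in TX 2i ESCs. F KSR4 and M KSR5 lay above the MEFs in every library, and the other groups overlapped with MEFs. Krt18 was called higher in F KSR4 (1.89 ± 0.72, log2, SE; adjusted p = 0.0286) and in M KSR5 (1.69 ± 0.72; adjusted p = 0.0461). The call in F KSR4 was lost without MEF replicate 1 (1.42) or F KSR4 replicate 3 (1.49), and that in M KSR5 without MEF replicate 1 (1.22), M KSR5 replicate 2 (1.67) or 3 (1.31), and, with its value unchanged, without 1 of 7 libraries of other groups. The difference of the 5 groups from MEFs, 0.82 ± 0.56, was not called (adjusted p = 0.189).

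The other simple epithelial keratins were lower in pluripotent cells or not called. Krt19, the type I keratin without a tail domain, took 238, 594 and 706 reads in MEFs, and its highest library elsewhere was F KSR4 replicate 3 with 454, followed by F KSR2 replicate 3 with 228. It was 1.65 ± 0.45 lower on the log2 scale (adjusted p = 0.0030), and was called lower in F KSR2, M KSR3, M KSR5 and TX 2i ESCs and not in F KSR4 (−1.22 ± 0.58, adjusted p = 0.0713). The call in M KSR3 was lost without MEF replicate 2 or 3 or M KSR3 replicate 1 or 2 (−1.42 to −1.18), and that in M KSR5 without MEF replicate 3 (−1.38) or M KSR5 replicate 1 (−1.50). Krt20, a type I keratin of gut and urinary epithelium, took 17, 82 and 65 reads in MEFs, 11, 5 and 9 in F KSR2, 3, 5 and 21 in F KSR4, 15, 11 and 21 in M KSR3, 34, 39 and 20 in M KSR5, and none in TX 2i ESCs. Its difference from MEFs was −2.55 ± 0.54 (adjusted p = 0.0004) and −3.17 without MEF replicate 1, and F KSR4 and the male lines overlapped with MEFs. Krt7, the type II keratin of ducts and trophoblast, took 87, 146 and 120 reads in MEFs, 9, 43 and 179 in F KSR2, 53, 95 and 302 in F KSR4, 21, 26 and 23 in M KSR3, 135, 124 and 207 in M KSR5, and 5, 11 and 9 in TX 2i ESCs. The iPSC lines lay on both sides of the MEFs, and the mean difference was not called (−1.39 ± 0.63, adjusted p = 0.0548), although Krt7 was called lower in TX 2i ESCs (−3.79 ± 0.82, adjusted p = 0.0006) and in M KSR3 (−2.30 ± 0.82, adjusted p = 0.0192). Krt23, a type I keratin of simple epithelia that was not tested, took 5, 30 and 16 reads in M KSR3 and 0 to 3 in every other library.

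**Figure D3:**
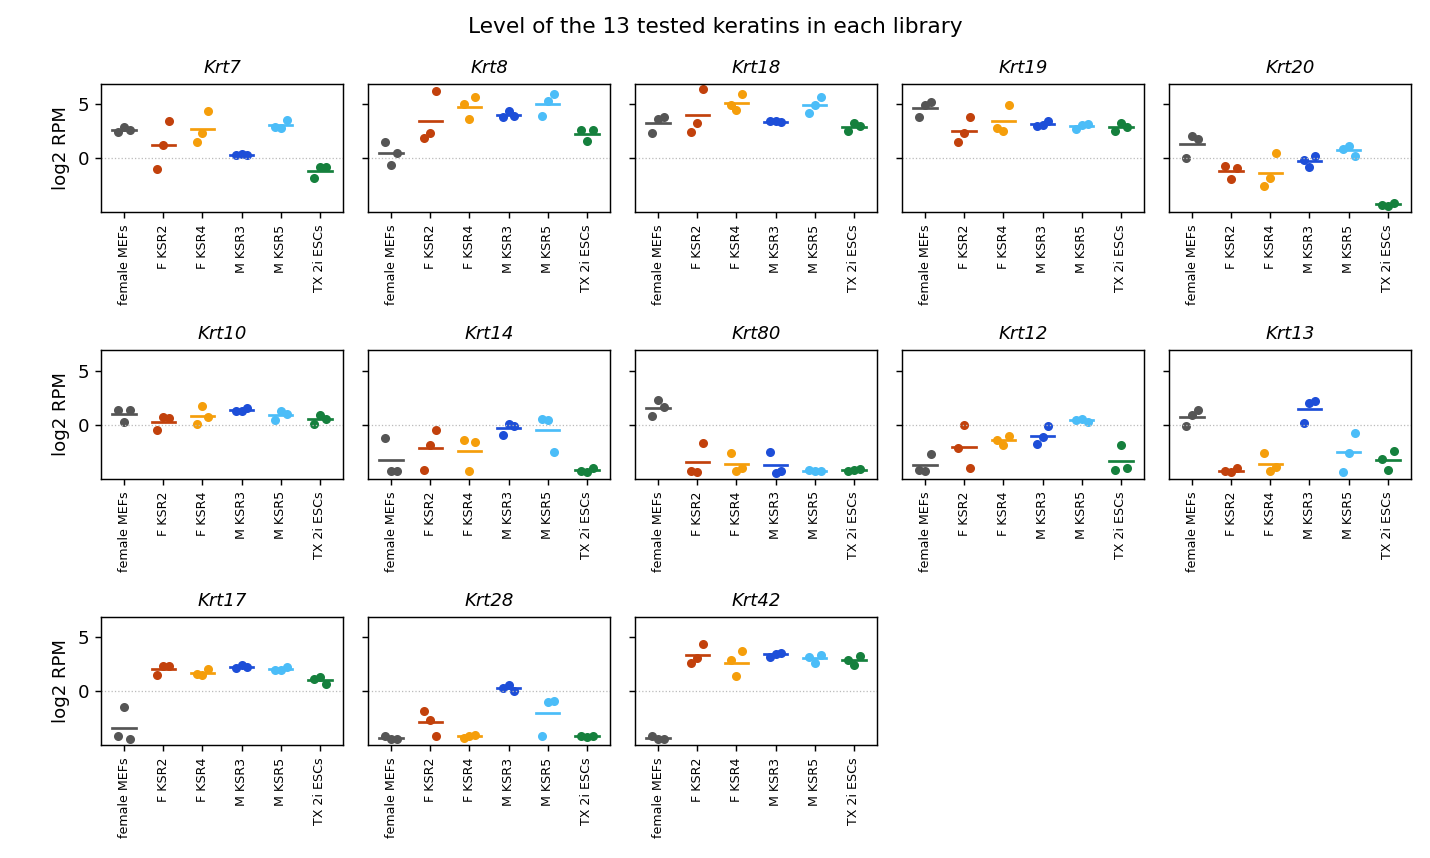
Log2 RPM (vertical axis) of the 13 tested keratins in each library, 1 panel per gene, with the 6 groups on the horizontal axis, points for libraries and short lines for the mean of 3. Krt42 and Krt17 rise from the floor of the MEFs to all pluripotent groups, Krt80 does the opposite, and Krt7, Krt8 and Krt18 spread widest in F KSR2.

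Krt80, a type II keratin of differentiating epithelia, was the clearest loss. It took 28, 99 and 61 reads in MEFs, 0, 0 and 5 in F KSR2, 3, 0 and 0 in F KSR4, 3, 0 and 0 in M KSR3, 1, 0 and 0 in M KSR5, and 0, 1 and 0 in TX 2i ESCs. All 15 pluripotent libraries were below the MEFs. The difference was −5.47 ± 0.56 (log2, SE; adjusted p = 1.10e-07 by limma), a fitted value that depends on how libraries without reads are written. Krt80 passed the filter only through MEFs, so a lower level elsewhere was built in and this value is a description. Krt10, the type I keratin of the suprabasal epidermis, took 13 to 59 reads in every library and was not called in any of the comparisons with MEFs or TX 2i ESCs (pluripotent cells against MEFs −0.21 ± 0.38, adjusted p = 0.631). Its partner Krt1 had 9 reads over all 18 libraries together.

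Krt14, the type I keratin of basal epidermal cells, took 7, 1 and 1 reads in MEFs, 1, 5 and 12 in F KSR2, 7, 0 and 5 in F KSR4, 9, 20 and 17 in M KSR3, 27, 25 and 3 in M KSR5, and 0, 0 and 1 in TX 2i ESCs. Both male lines were called higher than MEFs (M KSR3 2.93 ± 1.06, adjusted p = 0.0214; M KSR5 2.77 ± 1.06, adjusted p = 0.0283), and M KSR5 overlapped with MEFs through its replicate 3. Both calls were lost without MEF replicate 2 (2.41 and 2.25) or 3 (2.43 and 2.27), and that of M KSR3 also without its replicate 3 (2.81). Krt14 passed the filter only through M KSR3 replicate 2 and M KSR5 replicates 1 and 2, and left the tests without any 1 of them. Its calls in the male lines are therefore a description. Without MEF replicate 1 they were 3.95 and 3.78, and without M KSR5 replicate 3 that of M KSR5 was 3.79. Of Krt14's windows of 50 bases, 13.9% are shared with Krt16 and Krt17. Its partner Krt5 was not tested, with 15 reads in F KSR4 replicate 1, 7 in M KSR5 replicate 1 and 3 or fewer in all others. Krt9, a type I keratin of palm and sole epidermis, took 18, 16 and 9 reads in M KSR5, 5, 5 and 1 in F KSR2 and at most 3 elsewhere. Krt79, a type II keratin of sebaceous gland ducts, took 15, 11 and 1 reads in M KSR5 and at most 7 elsewhere.

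Among mucosal, corneal and stress keratins, Krt13 and Krt12 went opposite ways. Krt13, the type I keratin of the inner mucosae, took 15, 37 and 48 reads in MEFs, 0, 0 and 1 in F KSR2, 3, 0 and 1 in F KSR4, 19, 79 and 86 in M KSR3, 0, 3 and 10 in M KSR5, and 2, 1 and 3 in TX 2i ESCs. M KSR3 thus lay within or above the MEFs, at a log2 RPM of 1.47 ± 1.16 against 0.71 ± 0.75 (SD, n = 3), and the other 4 groups lay below them. The mean difference from MEFs was −3.15 ± 0.63 (adjusted p = 0.0002), and M KSR3 alone was not called (0.77 ± 0.81, adjusted p = 0.414). Its partner Krt4 stayed at 5 or fewer reads in every library. Krt12, the type I keratin of the cornea, took 0, 1 and 3 reads in MEFs, 4, 19 and 1 in F KSR2, 7, 5 and 7 in F KSR4, 5, 9 and 17 in M KSR3, 24, 26 and 21 in M KSR5, and 1, 5 and 1 in TX 2i ESCs. Its difference from MEFs was 2.23 ± 0.65 (adjusted p = 0.0052), with calls in F KSR4, M KSR3 and M KSR5, of which the first and second were lost without MEF replicate 1 (2.04 and 2.49) or 2 (1.99 and 2.43), and the first also without F KSR4 replicate 1 or 3 (adjusted p of 0.0516 and 0.0666). Krt75, a type II keratin of the hair follicle's companion layer, was not tested, with 9, 13 and 16 reads in MEFs, 7, 0 and 5 in M KSR3, 6, 7 and 1 in M KSR5, at most 3 in the female lines and none in TX 2i ESCs. The other 2 of this group that reached 10 reads, Krt6a and Krt16, did so in 1 library of M KSR3 each, with 12 and 11 reads, and share 45.7% and 37.6% of their windows of 50 bases with other genes.

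Krt28, a type I keratin of the inner root sheath, took 21, 30 and 19 reads in M KSR3, 1, 9 and 9 in M KSR5, 5, 3 and 0 in F KSR2, 0, 1 and 0 in F KSR4, 1, 1 and 0 in TX 2i ESCs and none in MEFs. Only M KSR3 reached the level of the filter. Taking 3 reads as the floor of each MEF library, its mean was at least 7.73-fold higher in M KSR3 and 2.19-fold higher in M KSR5. Both lines were called, and M KSR5 lost its call without any 1 MEF library or its own replicate 2 or 3 (adjusted p of 0.055 to 0.0832).

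**Figure D4:**
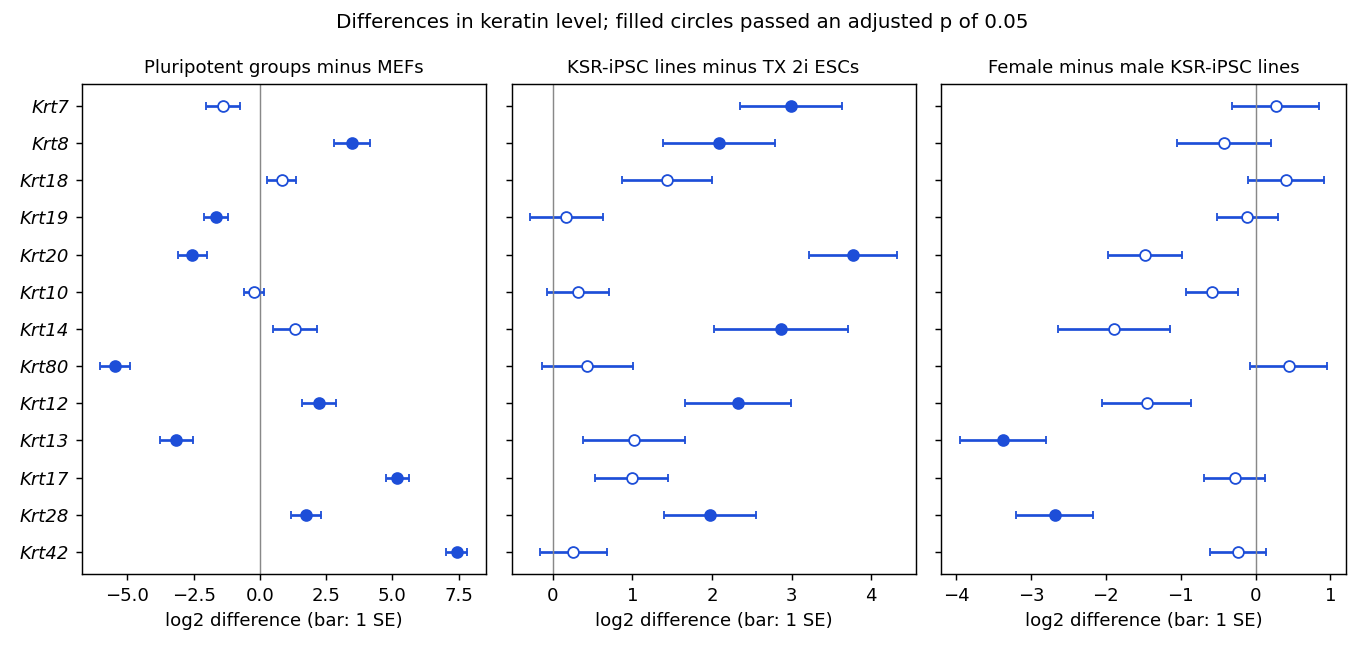
Log2 difference (horizontal axis) of the 13 tested keratins (rows), with bars of 1 SE. The panels show the 5 pluripotent groups against MEFs, the 4 KSR-iPSC lines against TX 2i ESCs, and the female against the male KSR-iPSC lines. Filled points passed an adjusted p of 0.05 by limma. Krt42 and Krt80 lie at the ends of the first comparison, and all 6 calls of the second lie to the right of 0.

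By group, F KSR2 had 3 of the 13 keratins higher than MEFs and 4 lower, beside 38.0% and 29.0% of all tested genes. F KSR4 had 5 higher and 3 lower, beside 34.6% and 31.2%, M KSR3 6 and 3, beside 39.4% and 28.2%, and M KSR5 7 and 3, beside 39.0% and 28.9%. TX 2i ESCs had 2 higher and 5 lower, beside 37.5% and 29.0%. These comparisons share the same 3 MEF libraries. In TX 2i ESCs only Krt42 and Krt17 were called higher, and Krt80, Krt20, Krt13, Krt7 and Krt19 lower.

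The comparison of KSR-iPSCs with TX 2i ESCs gave 6 higher keratins. The mean of the 4 lines was higher for Krt20, Krt7, Krt14, Krt12, Krt8 and Krt28, which is 6 of the 13 tested, and lower for none; 23.0% of all tested genes were called in either direction and 12.0% lower. None of the 13 was lower at an unadjusted p under 0.05 or by limma-voom on the recovered reads either. Without the filter Krt222, not among the 13, was called lower by 1.88 on the log2 scale. The median log2 difference of the 13 was 1.44, against −0.00 for all tested genes. Krt28, Krt14 and Krt12 passed the filter only through KSR-iPSC libraries, so a higher level there was built in. The count and the median are therefore a description. No library of TX 2i ESCs had a read of Krt20, and with 3 reads as the floor of each of them the mean of Krt20 was at least 2.76-fold higher in F KSR2, 3.58-fold in F KSR4, 5.01-fold in M KSR3 and 10.0-fold in M KSR5 (adjusted p = 0.0001 for the 4 lines); without F KSR4 replicate 3 the bound of F KSR4 was 1.28-fold. Krt7 was 2.99 ± 0.65 higher (log2, SE; adjusted p = 0.0029), Krt14 2.87 ± 0.84 (adjusted p = 0.0200), Krt12 2.33 ± 0.67 (adjusted p = 0.0179), Krt8 2.09 ± 0.70 (adjusted p = 0.0393) and Krt28 1.97 ± 0.57 (adjusted p = 0.0195). Krt18 missed the threshold at 1.44 ± 0.57 (adjusted p = 0.0783), and Krt19, at 0.17 ± 0.46, differed by less than its error (adjusted p = 0.838). With 1 mean per line as the unit none of the 6 was called. Leaving out 1 library changed this count most for TX 2i ESCs, with 2, 3 and 2 higher calls without replicates 1, 2 and 3, and for M KSR3, with 3 calls without replicate 2. Krt20 and Krt7 kept their calls without any 1 library. Krt8, Krt14 and Krt28 were not called without any 1 TX 2i library (adjusted p of 0.0604 to 0.184), nor Krt12 without TX 2i replicate 1 (1.92) or 3 (2.01), and without replicate 2 Krt12 was 3.05 higher. Krt8 also lost its call without F KSR4 replicate 3, M KSR3 replicate 2 or 3, or M KSR5 replicate 2 or 3 (adjusted p of 0.0513 to 0.057), and Krt28 without any 1 MEF library (adjusted p of 0.0726 to 0.0765).

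Each line was also compared with TX 2i ESCs on its own. F KSR2 had 1 call, Krt20 (3.11 ± 0.70, log2, SE), with 6.14% of all genes called higher. F KSR4 had 3, Krt7 (3.90 ± 0.82), Krt20 (2.96 ± 0.70) and Krt18 (2.21 ± 0.72), with 5.85% called higher. M KSR3 had 4, Krt13 (4.73 ± 0.81), Krt28 (4.50 ± 0.73), Krt20 (4.00 ± 0.70) and Krt14 (3.89 ± 1.06), with 12.6%. M KSR5 had 5, Krt20 (5.02 ± 0.70), Krt7 (4.23 ± 0.82), Krt12 (3.76 ± 0.84), Krt14 (3.73 ± 1.06) and Krt8 (2.80 ± 0.88), with 9.38%. Krt20 was called in all 4 lines. In F KSR4, without its replicate 3 Krt7 was 3.10 and Krt20 2.05, without its replicate 1 they were 4.51 and 3.60, and Krt18 lost its call without any 1 TX 2i library, F KSR4 replicate 1 or 3, any 1 M KSR3 library or M KSR5 replicate 2 (1.81 to 2.37). In M KSR5, Krt8 lost its call without any 1 TX 2i library or its own replicate 2 or 3 (2.36 to 2.97) and was 3.39 without replicate 1. Krt14 lost it there without TX 2i replicate 1 or 2 (3.69 and 3.65) and was 4.75 without M KSR5 replicate 3. Without TX 2i replicate 2 Krt12 was 4.48 in M KSR5, and without M KSR3 replicate 1 Krt13 was 5.39 in M KSR3. A call in 1 line and not in another does not show that they differ. Krt28, Krt14 and Krt12 passed the filter only through KSR-iPSC libraries, and among these lines Krt13 passed it only in M KSR3. Their calls here are therefore a description.

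Tested among the 4 lines themselves by limma's F test, 2 of the 13 keratins differed, Krt13 with a range of group means of 5.71 on the log2 scale (adjusted p = 0.0008) and Krt28 with a range of 4.51 (adjusted p = 0.0031); 14.1% of all genes passed. Krt28 entered the tests only through the 3 libraries of M KSR3, so it had to differ among the lines, and its values here and between the sexes are a description. Krt13 passed the filter through MEF replicates 2 and 3 and the libraries of M KSR3, and no other KSR-iPSC library reached it. Without M KSR3 it would not have been tested. Its values among the lines, between the sexes and between the male lines are therefore a description too. Both were lower in the mean of the 2 female lines than in that of the male lines, Krt13 by −3.38 ± 0.57 (adjusted p = 0.0012) and Krt28 by −2.68 ± 0.51 (adjusted p = 0.0032), with 6.69% of all genes called lower and 3.72% higher. None was higher in the female lines, at an unadjusted p under 0.05 either. Without any 1 library of M KSR3, Krt28 left the tests and Krt13 was the 1 call, and without F KSR2 replicate 3 the F test called 5 keratins. The range of Krt13 was 6.38 without M KSR3 replicate 1. Krt13 also differed between the 2 male lines (M KSR3 above M KSR5 by 4.04 ± 0.81, adjusted p = 0.0103), the only call of 13, with 4.48% of all genes called in either direction. This call was lost without M KSR3 replicate 2 or 3 or M KSR5 replicate 1 (3.15 to 3.76), and the difference was 4.70 without M KSR3 replicate 1 and 4.92 without M KSR5 replicate 3. Between F KSR2 and F KSR4 no keratin was called by limma, or reached an unadjusted p under 0.05, with 1.14% of all genes called in either direction.

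In F KSR2, F KSR4 and M KSR5, replicate 3 had the highest RPM of Krt7, Krt8 and Krt18, and also of Krt17, Krt19 and Krt42. Replicate 3 of these lines was above the lowest of the line by 4.86-fold, 5.28-fold and 1.44-fold for Krt19 and by 3.52-fold, 4.99-fold and 1.67-fold for Krt42. Between the highest and lowest library, Krt8 spanned 21.5-fold in F KSR2, 4.05-fold in F KSR4 and 4.14-fold in M KSR5, and 1.46-fold in M KSR3. Krt18 spanned 15.8-fold, 2.69-fold, 2.90-fold and 1.05-fold in the same lines, and Krt7 21.6-fold, 6.98-fold, 1.72-fold and 1.09-fold. Replicate 3 of F KSR2, F KSR4 and M KSR5 was also left out together. This choice was made after seeing the data, in which these libraries were the highest for these genes, so the values without them are a description. Without these 3 libraries, Krt18 was called higher by limma in KSR-iPSCs than in TX 2i ESCs (0.95, adjusted p = 0.0392). Krt8 stayed called (1.52, adjusted p = 0.0229), and Krt7 was called lower than in MEFs (−1.83, adjusted p = 0.0009).

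Markers of other epithelial or extraembryonic cells moved with these libraries in part. The summed level of 10 surface ectoderm and epidermis genes was 60.1, 54.4 and 191.2 RPM in the F KSR2 libraries, 255.1, 73.1 and 167.0 in F KSR4, 106.5, 96.5 and 206.3 in M KSR5, and 57.5 to 112.5 in M KSR3. In TX 2i ESCs it was 27.1 to 49.9 RPM and in MEFs 15.3 to 45.7, and 1 of the 10, Flg, was at 0 in all libraries. The highest members were Sfn and Perp, both called higher in KSR-iPSCs than in TX 2i ESCs, and Col17a1, which was not called there. Of the 6 tested members 2 were called higher there and 2 lower, with a median log2 difference of −0.24. Of all tested genes 23.0% were called in either direction and 12.0% lower. The sum of 10 trophoblast genes was 24.5, 23.3 and 80.1 RPM in F KSR2, 69.3, 28.7 and 41.1 in F KSR4, 23.7, 25.3 and 51.5 in M KSR5, 12.7 to 18.7 in M KSR3 and 19.2 to 28.2 in TX 2i ESCs. F KSR2 and M KSR5 replicate 3 had the highest sums of their lines in both lists and F KSR4 replicate 3 in neither. Fibroblast genes summed to 252.7 RPM in M KSR5 replicate 3 and to 22.5 to 93.1 RPM in the other KSR-iPSC libraries. The sum of 13 primitive endoderm genes was 716 to 757 RPM in M KSR3 and 88.8 to 316 in the other KSR-iPSC libraries. It was higher still in MEFs, at 1118 to 1311 RPM, and 164 to 194 in TX 2i ESCs, so this sum is not particular to primitive endoderm. The part of such cells in the keratin levels was not tested.

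Desmosomes and hemidesmosomes are the junctions that keratin filaments attach to. The counts of genes called against MEFs stand beside 42.1% of all tested genes called higher and 32.5% called lower. Of 16 desmosome genes 8 were tested, 7 of them were higher in pluripotent cells than in MEFs and none lower, and 5 (Dsc1, Dsg1a, Dsg1b, Dsg1c and Dsg4) had no reads. Of its leading members, Pkp4 (plakophilin 4) differed by 1.30 ± 0.15 and Pkp2 by 0.88 ± 0.24, and Jup (plakoglobin), at −0.47 ± 0.31, was not called. Of 11 tested genes of hemidesmosomes and keratin linkers 6 were higher and 2 lower, with Itga6 at 1.09 ± 0.20, Plec (plectin) at −2.95 ± 0.31 and Dst at −0.06 ± 0.21, the last not called. Of 12 tested regulators of epithelial genes 10 were higher and 1 lower, with Tfap2c at 9.82 ± 0.33, Klf5 at 4.17 ± 0.25 and Klf4 at 0.96 ± 0.25. Klf4 is also among the factors of the transgene. Of 15 simple epithelium genes 14 were higher and 1 lower, among them Epcam (10.04 ± 0.26), Cdh1 (9.28 ± 0.65) and Spint2 (5.04 ± 0.13). Of 15 tested other intermediate filament genes 6 were higher and 6 lower, with Vim (vimentin) at −4.40 ± 0.25, Lmna at −4.20 ± 0.20 and Lmnb1 at 2.33 ± 0.21. The median differences of these lists were 1.58, 1.09, 5.20, 7.30 and −0.70 in the order given, and that of all genes 0.21.

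Between KSR-iPSCs and TX 2i ESCs these lists had calls in both directions, beside 23.0% of all tested genes called in either and 12.0% called lower. Desmosome genes had 2 higher and 1 lower, hemidesmosome and linker genes 3 and 1, epithelial regulators 2 and 2, simple epithelium genes 6 and 1, and other intermediate filaments 4 and 3. Their medians were 0.10, 0.54, 0.27, 0.45 and −0.25. Epcam was 0.86 ± 0.26 higher in KSR-iPSCs, Spint2 0.73 ± 0.13, Vim 1.00 ± 0.25, Lmna 1.43 ± 0.20 and Plec 0.91 ± 0.32, whereas Cdh1 (−0.25 ± 0.66) and Klf4 (−0.69 ± 0.25, adjusted p = 0.0580) were not called. Whether the lists differ from one another was not tested.

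Because the cells are hybrids, reads that cover a SNP between BL6 and CAST show the allele of origin, and BL6 is the maternal one in the iPSC lines. Shares are given for libraries with at least 5 allelic reads. Krt13 showed the largest contrast. In MEFs 2 of 7, 3 of 18 and 6 of 20 allelic reads were BL6 (25.1 ± 7.32%, SD, n = 3), and in M KSR3 13 of 13, 41 of 41 and 39 of 39 (93 of 93 reads, which gives a Wilson 95% interval of 96.0 to 100%). The exact two-sided permutation p was 0.1, the smallest that 3 against 3 libraries allow, and 0.257 after adjustment over the 18 shares tested. Krt42, without reads in MEFs, was 88.9 ± 1.82% BL6 in M KSR3, 63.3 ± 1.87% in M KSR5, 61.5 ± 9.97% in F KSR4, 50.6 ± 15.1% in F KSR2 and 64.3 ± 17.9% in TX 2i ESCs. Krt19 was 79.0 ± 11.4% BL6 in M KSR3 and 61.6 ± 7.88% in MEFs, a difference within what the libraries allow (exact p = 0.2).

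These 3 genes lie on chromosome 11, and other genes there went the same way in M KSR3. Over 402 other genes within 5 Mb of the cluster, the BL6 share of M KSR3 was 67.2 ± 0.63% (SD, n = 3), against 48.7 to 50.6% in the means of the other groups. The level of 132 of them in M KSR3 was 0.57 ± 0.01 above that in the other 3 lines on the log2 scale. Their part in the Krt13, Krt28 and Krt42 values was not tested.

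On chromosome 15, the simple epithelial pair had low BL6 shares in MEFs. Krt18 was BL6 in 2 of 10, 10 of 29 and 8 of 30 reads (27.0 ± 7.25%, SD, n = 3), and the shares were 67.6% in M KSR5, 58.4% in F KSR4, 56.8% in M KSR3, 54.6% in TX 2i ESCs and 52.6% in F KSR2. Every library of the 4 iPSC lines was above every MEF library (exact p = 0.1 for each line, adjusted p = 0.257). Krt8 was BL6 in 2 of 13 and 4 of 12 reads in the 2 MEF libraries with enough reads (24.4%), and the means were 60.8% in M KSR5, 60.0% in M KSR3, 55.2% in TX 2i ESCs, 51.1% in F KSR4 and 45.7% in F KSR2, at an exact p of 0.2 for each, the smallest that 3 against 2 libraries allow. Over 184 other genes within 5 Mb, MEFs were at 50.3% and the groups other than M KSR5 at 51.5 to 53.4%. M KSR5 was at 65.1, 65.8 and 56.3% in its 3 libraries, and there the level of 82 of these genes was 0.53, 0.54 and 0.13 above that in the other 3 lines. Its part in Krt7, Krt8 and Krt18 of M KSR5 was not tested. Krt20, on chromosome 11, went the other way, with 88.0 ± 12.5% BL6 in MEFs and 63.3 ± 12.0% in M KSR5 (exact p = 0.1, adjusted p = 0.257).

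**Figure D5:**
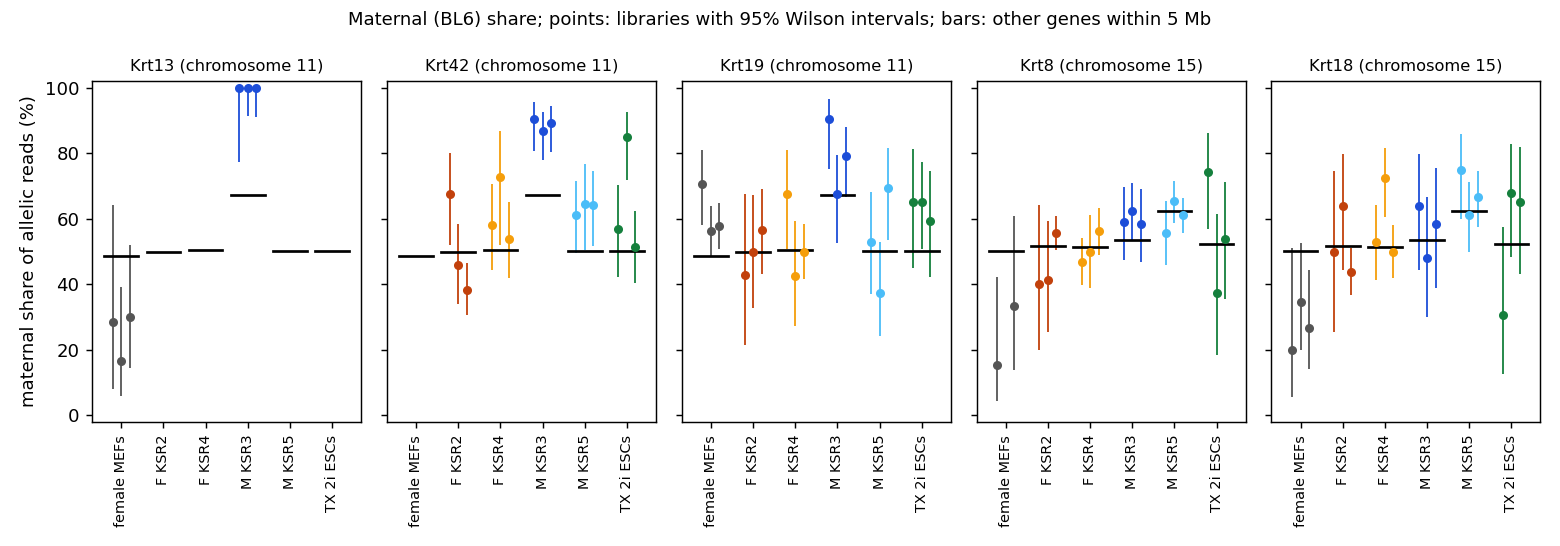
Share of allelic reads from the BL6 allele in percent (vertical axis) for Krt13, Krt42, Krt19, Krt8 and Krt18, 1 point per library with at least 5 allelic reads, by group, with Wilson 95% intervals, and a black bar for the other genes within 5 Mb. Krt13 is at 100% in the 3 libraries of M KSR3 and below 50% in MEFs, and Krt18 is lower in the 3 MEF libraries than in the iPSC lines.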

How the data were processed

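RNA-seq of 18 libraries was used, in 6 groups of 3 that the labels call biological triplicates. MEFs came from 1 embryo and each iPSC line is 1 clone, so p-values measure only the spread between these samples. The labels give total RNA, and paired-end reads, and the study's methods a strand-specific polyA library read from 1 end. Per the submitters' processing notes, reads were trimmed with Trim Galore 0.6.1 and aligned with HISAT2 2.1.0 to GRCm38, and the methods name SeqMonk for counting. The authors deposited log2 RPM per gene, with columns for all reads, reads without an informative SNP, and BL6 and CAST reads. A gene without reads stands at the value of 0.9 read. No length correction is in the values, so levels of different genes were compared only per kilobase of coding length (GENCODE vM21).

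Whole reads were recovered from the steps of the values (99.973 to 100% within 0.05 of a whole number). limma 3.58.1 in R 4.3.3 (lmFit, contrasts, eBayes with trend) was fitted to the log2 values of all 18 libraries with 1 mean per group, over the 14632 genes with a log2 RPM above 0 in at least 3 libraries, with Benjamini-Hochberg adjustment and a threshold of 0.05. Allelic shares were compared by exact two-sided permutation tests, with the smallest p of 0.1 for 3 against 3 libraries. Python 3.11.15, numpy 2.4.6, pandas 2.3.3, scipy 1.17.1 and matplotlib 3.10.9 were used, and the fits were tested on simulated data. All tested keratins are named, and keratins with at least 10 reads in a library are named with their reads. Of the junction, regulator, simple epithelium, intermediate filament and surface ectoderm lists, the 3 members with the highest mean level are named. The fibroblast, pluripotent cell, trophoblast and primitive endoderm lists are given as sums only. Members, lists and comparisons were chosen with earlier results of these data known. Alternatives were other filters, 1 RPM as pseudocount, a common median, limma-voom on recovered reads, other sets of libraries, 1 mean per line, a replicate block and each library left out. The common median moved the median difference of all genes by −0.12 for pluripotent cells against MEFs, and at most by −0.17 (M KSR3 against MEFs) and 0.16 (F KSR4 against TX 2i ESCs). Squared differences between replicates were 2.97 to 78.6 times the counting noise, so no library was counted as a copy of another. The reference had no protein table to print.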

Additional observations from a re-analysis of the deposited data

Results flagged for a closer look

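Krt28 and Krt13 differed among the 4 KSR-iPSC lines by a test of the difference itself, limma's F test with Benjamini-Hochberg adjustment. The range of the group means on the log2 scale was 4.51 for Krt28 (adjusted p = 0.0031), with M KSR3 at the top and F KSR4 at the bottom, and 5.71 for Krt13 (adjusted p = 0.0008), with M KSR3 at the top and F KSR2 at the bottom. Krt28 entered the tests only through the 3 libraries of M KSR3, so it had to differ among the lines, and its value is a description. Krt13 would not have been tested without M KSR3, the only KSR-iPSC line that reached the filter, so its value is a description too.

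In 3 of 26 sets of 6 libraries, those of the female or of the male KSR-iPSCs, 1 library stood apart from the other 5 by Dixon's criterion, which chance meets in about 1 in 20 sets. Krt28 was at a log2 RPM of −4.18 (1 read) in M KSR5 replicate 1, and the nearest male library was at −0.99. Krt13 was at −2.60 (3 reads) in F KSR4 replicate 1, and the nearest female library was at −3.89. Krt80 was at −2.52 (3 reads) in M KSR3 replicate 1, and the nearest male library was at −4.18. Each of these rests on 1 to 3 reads, within the uncertainty of low read numbers.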

How the results depend on the processing

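Of the 13 tested keratins, Krt42, Krt17, Krt8 and Krt19 kept their direction and call between pluripotent cells and MEFs under every alternative run. Krt80 kept both in the 23 alternatives that tested it, and left the tests with a filter of log2 above 1 and without any 1 MEF library. Krt42, Krt17 and Krt80 passed the filter only through the groups where they are high. Their direction was thus built in, and its being kept is a description. Krt20 and Krt7 lost their calls between KSR-iPSCs and TX 2i ESCs only with 1 mean per line. Pluripotent cells against MEFs gave 5 higher and 4 lower calls, and 3 higher with a filter of log2 above 1, 3 higher and 2 lower with 1 mean per line, and 3 to 5 of each with 1 library left out. KSR-iPSCs against TX 2i ESCs gave 6 higher and 0 lower, 3 higher with the stricter filter, 3 higher by limma-voom, 0 higher with 1 mean per line, 1 lower without a filter (Krt222, by −1.88), and 2 to 7 higher with 1 library left out. The F test among the 4 lines gave 2 calls, 1 with the stricter filter, 5 without a filter, 4 with 1 RPM added, 1 with only the libraries compared, 7 without replicate 3 of F KSR2, F KSR4 and M KSR5 (chosen after seeing the data), and 1 to 5 with 1 library left out. Female against male lines gave 2 lower calls, 1 with the stricter filter, 4 without a filter, 1 with only the libraries compared, 0 with 1 mean per line, 4 without those 3 libraries, and 1 to 3 with 1 library left out. The stricter filter and M KSR3 libraries left out take genes such as Krt28 out of the tests. For the other changes the cause was not tested.

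By line, the calls against MEFs fell from 9 to 5 in M KSR3 and from 10 to 6 in M KSR5 with the stricter filter, and ranged from 5 to 10 and from 6 to 10 with 1 library left out. Against TX 2i ESCs, M KSR3 (4 calls) gave 2 with the stricter filter, 7 without a filter, 7 without those 3 libraries and 2 to 6 with 1 library left out. M KSR5 (5 calls) gave 3 with the stricter filter and 3 to 7 with 1 left out. F KSR2 (1 call) gave 2 without a filter, 0 with only the libraries compared and 1 to 2 with 1 left out.

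No difference that changed direction was called. Between KSR-iPSCs and TX 2i ESCs, Krt19 (−0.0181 to 0.36 with 1 library left out) became −0.0154 without F KSR4 replicate 3, −0.0181 without TX 2i replicate 1 and −0.20 without the 3 libraries, and Krt42 −0.0373 without them. Between female and male lines, Krt18 (−0.18 to 0.81 with 1 left out) became −0.18 without F KSR2 replicate 3 and −0.19 without the 3 libraries. Krt7 (−0.29 to 0.82) became −0.29 without F KSR2 replicate 3, −0.13 without F KSR4 replicate 3 and −0.56 without the 3. Krt19 (−0.49 to 0.15) became 0.15 without F KSR2 replicate 1, 0.04 without F KSR4 replicate 1 and 0.12 without F KSR4 replicate 2, and Krt42 (−0.49 to 0.0916) became 0.0916 without F KSR4 replicate 2.

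The replicate numbers were not taken to pair the libraries: deviations of same-numbered libraries correlated at −0.20 to 0.38, over 0.1 in 13 of 45 pairs and in 12 of 90 pairs of other numbers, although 13 of 18 libraries correlated best with their own number. With a replicate block, pluripotent cells against MEFs gave 5 higher and 5 lower calls, KSR-iPSCs against TX 2i ESCs 7 and 0, the F test 3, female against male lines 0 and 2, and F KSR2 against TX 2i ESCs 2. The block added Krt7 against MEFs and in the F test, and Krt18 against TX 2i ESCs. Low reads limit all of this.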
